A study of Caenorhabditis elegans with 8 samples.

Results

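The 6 genes that encode the central region of the synaptonemal complex in Caenorhabditis elegans, syp-1 to syp-6, and the pachytene checkpoint gene pch-2 were followed in RNA of dissected gonads. These 7 genes were taken by name out of 46934 genes with counts, and all 7 passed the filter on low counts that left 10302 genes for testing. The groups were 3 wild-type libraries (wt, replicates 3, 4 and 5), 3 libraries of the sin-3(syb2172) mutant (replicates 3, 4 and 5) and 2 libraries of the hda-3(ok1991) mutant (replicates 4 and 5). SIN-3 is a scaffold protein of a co-repressor that recruits deacetylases of histones, and HDA-3 is one such enzyme, of class I. All animals were young adults, and each library pooled the gonads of 9 to 12 animals, so a value is an average over several animals and over every stage of the germ line in them. The labels describe the replicates as biologically independent and state 3 per strain, of which 2 hda-3 libraries were analysed here. Each mutant is represented by 1 allele.

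The synaptonemal complex is the protein structure that joins homologous chromosomes along their length during meiotic prophase. Chromosome axes built from cohesins and HORMA-domain proteins lie on its outer sides, and the SYP proteins fill the central region between them. In the worm these proteins depend on each other for assembly, and SYP-5 and SYP-6 are paralogues with overlapping roles. PCH-2, the orthologue of mammalian TRIP13, is a AAA+ ATPase that remodels HORMA-domain proteins. It acts in meiosis, where it monitors synapsis and paces pairing and recombination, and in the spindle checkpoint, where it works with the adaptor CMT-1.

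Reads counted on genes ranged from 14550417 to 24389531 per library, of which ribosomal RNA took 41.8 to 79.0%. The TMM factors, which correct library sizes for composition, spanned 0.424 to 2.30, and both ends were sin-3 libraries (replicates 3 and 5), so this group was the most uneven in composition. Levels are given as CPM, reads scaled to a common library size, on TMM-corrected library sizes. The choice of scaling matters here: in CPM of the reads outside ribosomal RNA, without TMM, the median gene was higher than in wt by 0.75 (log2, 8700 tested genes with reads in every library compared) in sin-3 and by 0.81 (8882 genes) in hda-3. There 85.6% (sin-3) and 85.5% (hda-3) of these genes had a mean log2 difference above 0. How many of all genes had no overlap between groups on that scale was not counted. Values of single genes on that scale were added after seeing the data. The sin-3 gene itself had 0, 2 and 1 reads in the sin-3 libraries and 606 to 1274 in wt. Reads of the hda-3 gene were 28.1 to 39.1 CPM in wt and 13.9 and 18.7 CPM in the hda-3 libraries. The hda-3 gene was called lower there than in wt by edgeR (adjusted p = 0.0178), but 4 of 16 alternative settings lost this call. In CPM of the reads outside ribosomal RNA both hda-3 libraries lay inside the wt range for this gene, so its lower level depends on the scaling. All 10 germ line markers had reads in every group, and their summed level was 3368 to 4141 CPM in wt, 1673 to 2689 CPM in sin-3 and 1986 to 2161 CPM in hda-3. All 10 oocyte markers summed to 9475 to 18761 CPM in wt, 4698 to 16861 CPM in sin-3 and 4265 to 4324 CPM in hda-3. The 11 sperm markers summed to 17.7 to 18.4 CPM in wt, 9.68 to 23.6 CPM in sin-3 and 336 to 425 CPM in hda-3. The 10 intestine markers summed to 6.11 to 40.2 CPM in wt, 29.0 to 90.4 CPM in sin-3 and 145 to 260.1 CPM in hda-3. The 9 somatic gonad markers summed to 27.4 to 96.9 CPM in wt, 41.9 to 72.8 CPM in sin-3 and 10.8 to 13.7 CPM in hda-3. Muscle markers summed to 25.6 to 48.1, 65.1 to 81.6 and 29.8 to 109.8 CPM in wt, sin-3 and hda-3. Neuron markers summed to 35.9 to 46.6, 26.1 to 33.0 and 25.2 to 32.1 CPM in the same order. Among these lists the markers with no reads in a group were rab-3 in wt and rgef-1 and snt-1 in hda-3, all neuronal. The part of these marker differences in the results below was not tested. In whole gonads, fewer cells of a type and less RNA per cell cannot be told apart.

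Wild-type levels per kilobase of exon placed the central region genes in 2 tiers. The upper tier held syp-2 at 84.7 ± 35.1 CPM per kilobase (SD, n = 3), syp-4 at 62.6 ± 16.9 and syp-3 at 49.4 ± 8.92. In wt the ranges of syp-2 (58.0 to 124.5) and syp-4 (49.2 to 81.5) overlapped, as did those of syp-4 and syp-3 (39.7 to 57.2), so their order was within the spread of the libraries. The lower tier held syp-6 at 14.3 ± 2.20 CPM per kilobase, syp-1 at 13.4 ± 1.54 and pch-2 at 13.3 ± 0.600, whose ranges overlapped. The lowest of the 7 was syp-5 at 8.75 ± 0.893, and its highest wt library, at 9.64, lay below the lowest library of every other gene of the 7. Even so, syp-5 stood at the 64.8th percentile of the 10302 tested genes by level per length in wt, and syp-2 at the 94.3rd. The place of syp-1 depends on the length used. The annotated exons of syp-1 span 3053 bases and its coding sequence 1467, and per kilobase of coding sequence syp-1 stood at 27.8 ± 3.20 CPM, above syp-6 at 15.95 ± 2.46 and pch-2 at 14.4 ± 0.650 (a scale chosen after seeing the data).

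**Figure D1:**
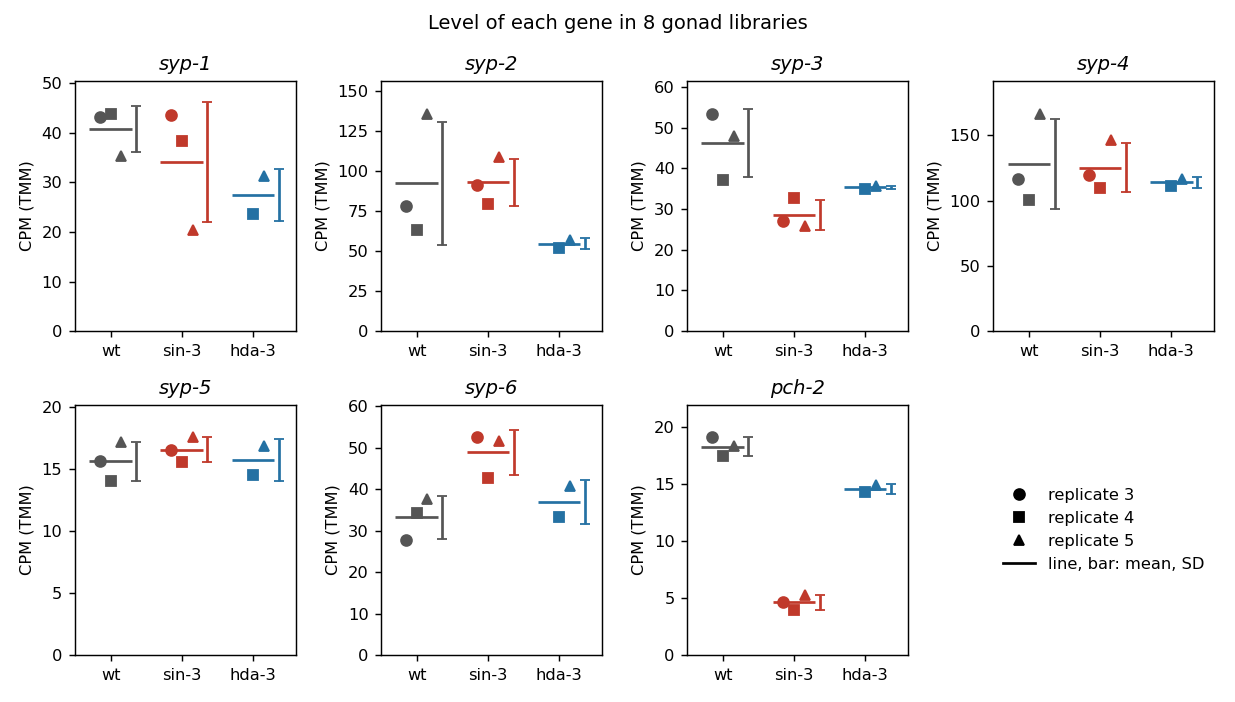
Level of each gene in each library, in CPM on TMM-corrected library sizes, with wt, sin-3 and hda-3 side by side; points are libraries, horizontal lines are group means and the bars beside them are SDs. The 3 sin-3 points of pch-2 lie between 3.92 and 5.25 CPM, below all wt points (17.4 to 19.1 CPM) and both hda-3 points (14.3 and 14.9 CPM).

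The gene pch-2 (WBGene00008641; chromosome II, positions 8158349 to 8159925 on the plus strand of WBcel235) was lower in sin-3 gonads and was the member with the largest change. In wt replicates 3, 4 and 5 it had 226, 187 and 414 reads, or 19.1, 17.4 and 18.3 CPM. In sin-3 replicates 3, 4 and 5 it had 48, 101 and 275 reads, or 4.64, 3.92 and 5.25 CPM. The groups did not overlap, as for 14.4% of all tested genes in this direction, and the highest sin-3 library stood well below the lowest wt library. The level fell from 18.3 ± 0.827 CPM in wt to 4.61 ± 0.664 CPM in sin-3 (SD, n = 3 each), which is 3.96 times lower. The log2 fold change was -1.99 (SE 0.23, 95% interval -2.49 to -1.48), with an adjusted p of 0.00129 by edgeR's quasi-likelihood test with Benjamini-Hochberg adjustment over all 10302 genes. Of the 507 genes called lower in sin-3, 59 had a larger estimated fall. In the authors' deposited table the log2 fold change of pch-2 in sin-3 was -1.95 with an adjusted p of 1.66e-07. No single library carried the call: over 16 alternative settings, which include leaving out each library in turn, the log2 fold change ranged from -2.07 to -1.85 and the adjusted p stayed at or below 0.0158. Its size depends on the scaling. In CPM of the reads outside ribosomal RNA pch-2 measured 28.4, 30.6 and 33.7 in wt and 9.39, 11.3 and 20.7 in sin-3, still without overlap, a log2 difference of -1.25 where the median gene moved by 0.75.

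The central region genes did not move with pch-2 as a group in sin-3 gonads. Among all 7 genes, 2 were called lower (pch-2 and syp-3) and 0 higher, against a background of 4.92% of tested genes called lower, 2.68% called higher and 7.6% called in either direction. The count of 0 higher was also obtained with DESeq2 and with limma voom, while 1 gene, syp-6, was higher at an unadjusted p under 0.05. The median log2 fold change of the 7 genes was -0.03, beside 0.12 for all tested genes, and with TMM on autosomal genes the medians were 0.042 and 0.19.

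The gene syp-3 (WBGene00006377; chromosome I, positions 8663045 to 8664445 on the minus strand) encodes a central region protein needed for the complex to form. It measured 53.4, 37.04 and 47.9 CPM in wt and 26.99, 32.8 and 25.7 CPM in sin-3, so that on this scale every sin-3 library lay below every wt library, as for 14.4% of all tested genes. In CPM of the reads outside ribosomal RNA the groups overlapped, with 79.6, 65.0 and 88.0 in wt and 54.6, 93.9 and 101.6 in sin-3. The mean fell from 46.1 ± 8.33 to 28.5 ± 3.74 CPM (SD, n = 3 each), a log2 fold change of -0.69 (SE 0.19, 95% interval -1.11 to -0.28, edgeR adjusted p = 0.0485). This call sat at the threshold. It was lost in 13 of the 16 alternatives, among them leaving out wt replicate 3 (adjusted p = 0.153), wt replicate 5 (0.141) or any 1 of the sin-3 libraries (0.0699, 0.0997 and 0.0817 for replicates 3, 4 and 5), or either hda-3 library (0.0775 and 0.081). The estimates over these alternatives ran from -0.83 to -0.58. The authors' deposited table lists syp-3 in sin-3 at a log2 fold change of -0.66 and an adjusted p of 0.101.

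The gene syp-6 (WBGene00019002; chromosome I, positions 6566125 to 6568954 on the plus strand) had the opposite sign. It measured 27.6, 34.3 and 37.7 CPM in wt and 52.5, 42.7 and 51.6 CPM in sin-3, again without overlap between the groups, as for 14.7% of all tested genes in this direction. Group means were 33.2 ± 5.11 CPM in wt and 49.0 ± 5.43 CPM in sin-3 (SD, n = 3 each). The log2 fold change of 0.56 (SE 0.19, 95% interval 0.15 to 0.97) had an edgeR adjusted p of 0.0898 and did not pass the threshold. It did not pass in any of the 16 alternatives, where the adjusted p ranged from 0.0594 to 0.238. Its paralogue syp-5 (WBGene00021832; chromosome I, positions 3193528 to 3198838 on the minus strand) measured 15.6, 13.99 and 17.2 CPM in wt and 16.5, 15.5 and 17.5 CPM in sin-3. The groups overlapped on this scale, and the log2 fold change of syp-5 was 0.08 with a 95% interval of -0.36 to 0.53 (edgeR adjusted p = 0.826). In CPM of the reads outside ribosomal RNA every sin-3 library lay above every wt library for both syp-6 and syp-5. Their log2 differences there were 1.32 and 0.84, where the median gene moved by 0.75. On that scale 85.6% of genes with reads in every library were above 0, and the share without overlap was not counted.

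In TMM-scaled CPM the other 3 central region genes were within the spread of the libraries in sin-3 against wt. In CPM of the reads outside ribosomal RNA every sin-3 library of syp-1 (88.1, 109.8 and 80.7) lay above every wt library (64.2, 76.9 and 65.0). That was a log2 difference of 0.43, where the median gene moved by 0.75 and 85.6% of genes were above 0. On the same scale syp-2 (0.83) and syp-4 (0.74) overlapped wt. The gene syp-1 (WBGene00006375; chromosome V, positions 16404274 to 16407701 on the plus strand) encodes a coiled-coil protein that spans the central region. It measured 43.1, 43.8 and 35.4 CPM in wt and 43.5, 38.3 and 20.5 CPM in sin-3, where replicate 5 stood apart as the lowest of all 8 libraries. The log2 fold change of syp-1 was -0.26 (95% interval -0.83 to 0.31, edgeR adjusted p = 0.55). The gene syp-2 (WBGene00006376; chromosome V, positions 5536487 to 5537717 on the plus strand), whose short product lies near the middle of the central region, measured 78.2, 63.3 and 136.0 CPM in wt and 91.2, 79.5 and 108.8 CPM in sin-3. Its wt replicate 5 was the highest of the 8 libraries, and its log2 fold change was 0.01 (95% interval -0.58 to 0.60, edgeR adjusted p = 0.991). The gene syp-4 (WBGene00019247; chromosome I, positions 6847511 to 6849923 on the plus strand), which had the highest CPM of the 7, measured 116.4, 100.7 and 166.7 CPM in wt and 119.6, 109.8 and 146.3 CPM in sin-3. Its log2 fold change was -0.03 (95% interval -0.55 to 0.48, edgeR adjusted p = 0.954). Missing the threshold does not show that these levels were equal.

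**Figure D2:**
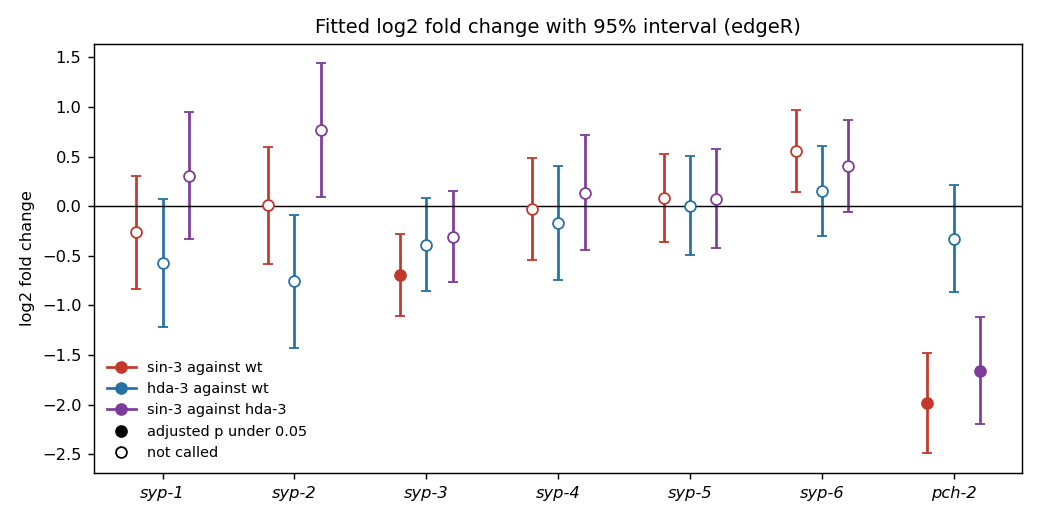
Log2 fold change of each of the 7 genes in sin-3 against wt, hda-3 against wt and sin-3 against hda-3; points are estimates from edgeR, filled where the adjusted p was under 0.05, and lines are 95% intervals. The intervals of pch-2 in both comparisons that involve sin-3 lie wholly below -1, while in hda-3 against wt the interval of pch-2, -0.87 to 0.22, spans 0.

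A comparison inside each library avoids the scaling between libraries, since both counts come from the same pool of RNA. For every 100 reads on the 6 syp genes there were 5.71, 5.95 and 4.16 pch-2 reads in wt replicates 3, 4 and 5. In sin-3 there were 1.33, 1.23 and 1.42, and in hda-3 replicates 4 and 5 there were 5.29 and 4.99. The sin-3 libraries formed a tight low group, and both hda-3 values lay inside the wt range. Means were 5.27 ± 0.973 in wt (SD, n = 3), 1.32 ± 0.0927 in sin-3 (n = 3) and 5.14 ± 0.216 in hda-3 (n = 2). In sin-3 the ratio was 3.94 times lower than in wt, a log2 difference of -1.98 (SE 0.17). The exact permutation test gave p = 0.1, which is the smallest that 3 against 3 libraries can give, and 0.3 after adjustment over 6 such tests. With all reads outside ribosomal RNA as the denominator in place of the syp reads, and no other scaling, the difference from wt was smaller, at -1.25 (exact permutation p = 0.1). Against hda-3 the sin-3 ratio was 3.88 times lower (log2 difference -1.96, SE 0.07, exact permutation p = 0.1, also the smallest possible, and 0.3 adjusted). Between hda-3 and wt the log2 difference was -0.02 (SE 0.17, exact permutation p = 1), but with reads outside ribosomal RNA as denominator it was 0.59 (exact permutation p = 0.1, the smallest possible). The denominator itself, the summed syp level, was 334.5, 293.2 and 440.8 CPM in wt, 350.4, 318.6 and 370.5 CPM in sin-3, and 269.7 and 298.6 CPM in hda-3. The sin-3 sums lay within the wt range, with a log2 difference of -0.02 (SE 0.18, exact permutation p = 1). That value depends on the scaling: on reads outside ribosomal RNA without TMM it was 0.73 (exact permutation p = 0.2).

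**Figure D3:**
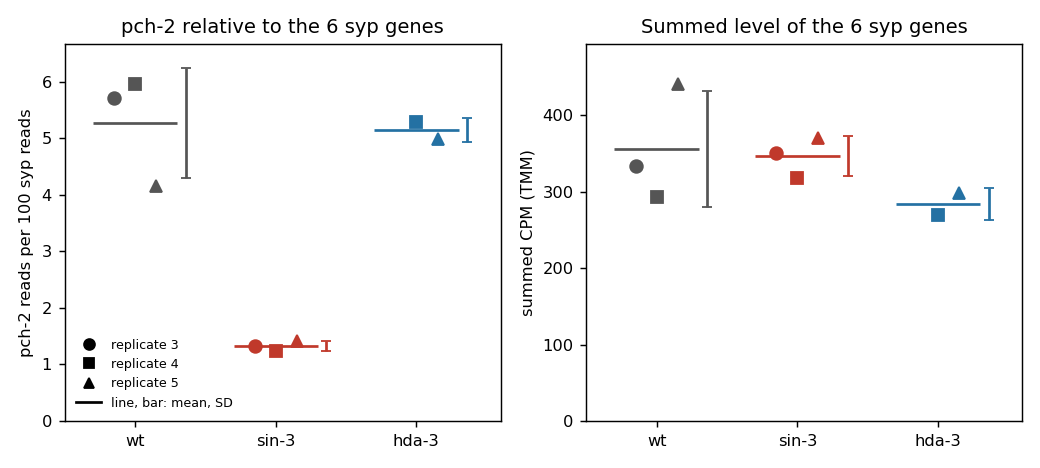
Reads of pch-2 per 100 reads on syp-1 to syp-6 in each library (left) and the summed CPM of the same 6 genes (right), by genotype, with points for libraries, lines for group means and bars for SDs. On the left the 3 sin-3 libraries sit between 1.23 and 1.42, below the wt libraries (4.16 to 5.95) and the hda-3 libraries (4.99 and 5.29).

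The make-up of the syp reads is given as a description without a test. The share of syp reads on syp-3 was 13.2 ± 2.59% in wt and 8.31 ± 1.75% in sin-3 (SD, n = 3 each), while that on syp-6 was 9.51 ± 1.91% in wt and 14.1 ± 0.808% in sin-3. In hda-3 the shares were 12.4 ± 0.731% for syp-3 and 12.99 ± 0.943% for syp-6 (n = 2). The largest share was that of syp-4, at 35.7 ± 1.89% in wt, 36.03 ± 3.003% in sin-3 and 40.2 ± 1.43% in hda-3. The share of syp-2 was 25.3 ± 4.91% in wt, 26.8 ± 2.31% in sin-3 and 19.3 ± 0.151% in hda-3. For syp-1 it was 12.0 ± 3.56% in wt, 9.99 ± 3.88% in sin-3 and 9.62 ± 1.18% in hda-3, and syp-5 took 4.45 ± 0.480%, 4.78 ± 0.0882% and 5.51 ± 0.191% in the same order.

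**Figure D4:**
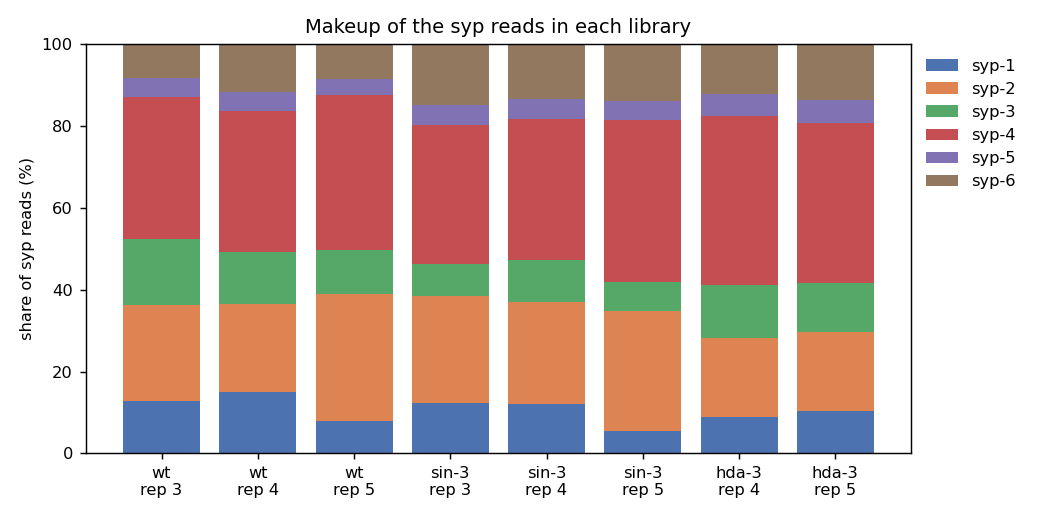
Percent of the reads on syp-1 to syp-6 that fell on each gene, as stacked bars for the 8 libraries. The share of syp-4 is the largest in every library, and the mean share of syp-3 is smaller in sin-3 (8.31%) than in wt (13.2%).

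In hda-3 gonads none of the 7 genes passed the threshold against wt, where 13.5% of all tested genes were called higher and 4.86% lower. With edgeR 0 of the 7 were called in either direction, with DESeq2 and limma voom also 0, and without adjustment, at a p under 0.05, there was 1 lower gene, syp-2, and 0 higher. The gene pch-2 measured 14.3 and 14.9 CPM in hda-3, below every wt library (17.4 to 19.1 CPM), as for 26.7% of all tested genes. Its log2 fold change was -0.33 (SE 0.25, 95% interval -0.87 to 0.22, edgeR adjusted p = 0.398). The authors' deposited table has -0.12 for the log2 change of pch-2 there, with an adjusted p of 0.892. The estimate was -0.18 with RLE factors, -0.13 with TMM on autosomal genes and -0.16 and -0.15 when sin-3 replicates 4 and 5 were each left out, and none of these passed. In CPM of the reads outside ribosomal RNA the direction turned: pch-2 measured 47.0 and 46.1 in hda-3, above every wt library (28.4 to 33.7). That was a log2 difference of 0.59, where the median gene moved by 0.81 and 85.5% of genes were above 0.

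In TMM-scaled CPM 3 of the syp genes had hda-3 libraries below every wt library without passing the test, as did 26.7% of all tested genes, passing or not. In CPM of the reads outside ribosomal RNA this order did not hold, with both hda-3 libraries above every wt library for syp-1 and syp-3 and inside the wt range for syp-2. The gene syp-2 measured 52.3 and 57.3 CPM in hda-3, against 63.3 CPM in its lowest wt library, and its log2 fold change was -0.76 (SE 0.31, 95% interval -1.43 to -0.09, edgeR adjusted p = 0.112). For syp-1 the hda-3 libraries held 23.7 and 31.2 CPM, against 35.4 CPM in the lowest wt library (log2 fold change -0.57, SE 0.30, edgeR adjusted p = 0.206). For syp-3 they held 34.97 and 35.6 CPM, against 37.04 CPM in the lowest wt library (log2 fold change -0.39, SE 0.21, edgeR adjusted p = 0.237). Single libraries moved these estimates: that of syp-2 was -0.37 without wt replicate 5, that of syp-1 was -0.37 without hda-3 replicate 4, and that of syp-3 was -0.22 and -0.21 without sin-3 replicates 4 and 5. With RLE factors and with TMM on autosomal genes syp-3 was at -0.24 and -0.19. The hda-3 values of the other 3 genes overlapped wt in TMM-scaled CPM: syp-4 had 111.04 and 116.9 CPM (log2 fold change -0.17), syp-5 14.5 and 16.9 CPM (0.01) and syp-6 33.2 and 40.8 CPM (0.15). In CPM of the reads outside ribosomal RNA both hda-3 libraries of these 3 genes lay above every wt library. The log2 differences there were 0.79, 0.93 and 1.08 in the same order, where the median gene moved by 0.81. On that scale 85.5% of genes with reads in every library were above 0, and the share without overlap was not counted. The median log2 fold change of the 7 genes was -0.33, beside -0.02 for all tested genes. It was -0.18 with RLE factors and with DESeq2, -0.16 with the 2 groups alone and -0.13 with TMM on autosomal genes, where 4 of the 7 estimates lay below 0 in place of 5. The median of all genes moved along, to 0.12, 0.12, 0.14 and 0.17 in the same order. In TMM-scaled CPM the summed germ line markers were also lower in both hda-3 libraries than in wt, as given above, and the summed sperm markers higher. Among the 10 sperm markers tested, 8 had estimates above 0 and 2 below. Of the 10 germ line markers 8 had estimates below 0 and 2 above. Only gld-1 was called lower, a call lost in 13 of 16 alternatives, beside 4.86% of all tested genes. The part of these markers in the values above was not tested.

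The mutants were also compared directly, and pch-2 was the gene of the 7 that differed. It was lower in sin-3 than in hda-3 by a log2 fold change of -1.66 (SE 0.25, 95% interval -2.20 to -1.12, edgeR adjusted p = 0.000595), where 12.7% of tested genes were called lower and 2.59% higher. All 16 alternatives kept this call, with log2 fold changes between -1.93 and -1.64. No gene of the 7 was called higher with edgeR, DESeq2 or limma voom, and 1, syp-2, was higher at an unadjusted p under 0.05 (log2 fold change 0.77, 95% interval 0.09 to 1.44, edgeR adjusted p = 0.136). Without wt replicate 5, which enters the shared estimate of the spread, syp-2 passed at an adjusted p of 0.0467. The comparisons of sin-3 and of hda-3 with wt share the wt libraries, and those of sin-3 with wt and with hda-3 share the sin-3 libraries, so their values are not independent.

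Genes that work beside the central region were taken as 5 lists with 73 tested genes in all. Directly between the mutants, 2 of the 73 were called higher in sin-3 and 2 lower, or 2.74% each. Over all tested genes 2.59% were higher and 12.7% lower there. In sin-3 against wt 7 of the 73 fell, or 9.59% against the background of 4.92% lower. None rose, where 2.68% of all tested genes were called higher, and the median log2 fold change was -0.13. In the higher direction 2 genes had an unadjusted p under 0.05, and DESeq2 and limma voom also called 0 higher. In hda-3 against wt 5 fell, or 6.85% against 4.86%, and 0 rose, where 13.5% of all tested genes were called higher. The median was -0.31, beside -0.02 for all tested genes. This median was -0.16 with RLE factors, -0.14 with the 2 groups alone and -0.11 with TMM on autosomal genes, and 42, 41 and 40 of the 73 estimates then lay below 0 in place of 57. The median of all genes itself moved to 0.12 with RLE factors and to 0.17 with TMM on autosomal genes. There 0 genes were higher at an unadjusted p under 0.05, and 0 by DESeq2 and limma voom. Most of these calls were close to the threshold: leaving out 1 library changed the count of falls to between 0 and 10 in sin-3 and between 0 and 7 in hda-3, and without sin-3 replicate 4 none of the 7 falls in sin-3 passed.

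The 9 genes of PCH-2 partners and the spindle checkpoint all had estimates below 0 in sin-3 against wt (8 of 9 where those groups alone were fitted), with a median of -0.47, beside 0.12 for all tested genes, and 2 of them fell, where 4.92% of all genes were lower. These were bub-3, which encodes a checkpoint protein of the kinetochore, and san-1, the worm MAD3 orthologue. The level of bub-3 fell from 152 ± 29.2 to 84.3 ± 13.2 CPM (log2 fold change -0.85, SE 0.22, edgeR adjusted p = 0.0415) and that of san-1 from 35.1 ± 2.02 to 22.4 ± 1.67 CPM (-0.65, SE 0.17, adjusted p = 0.0428). The call of bub-3 was lost in 8 of the 16 alternatives and that of san-1 in 9, with adjusted p up to 0.145 and 0.181. The adaptor gene cmt-1 measured 47.1 ± 8.87 CPM (wt) and 39.4 ± 11.2 CPM (sin-3) (log2 fold change -0.26, edgeR adjusted p = 0.497). The MAD2 orthologue mdf-2, a HORMA-domain protein, was at 80.0 ± 14.9 and 47.0 ± 10.2 CPM (-0.76, adjusted p = 0.0525). In hda-3 against wt 0 of the 9 passed, beside 4.86% lower and 13.5% higher over all genes. All 9 estimates were again below 0, but with RLE factors 7 and with TMM on autosomal genes 6 of the 9 were below 0. All genes shifted with these scalings: the list's median was -0.45 beside -0.02 for all genes, -0.31 beside 0.12 with RLE factors and -0.26 beside 0.17 with TMM on autosomal genes. The gene with the smallest p there was san-1 at -0.45 (edgeR adjusted p = 0.128). One gene of this list was lower at an unadjusted p under 0.05, and DESeq2 and limma voom called 0.

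Genes of synapsis assembly and its regulation numbered 26. In sin-3, 2 of them fell and 0 rose, beside 4.92% lower and 2.68% higher over all genes, with a median of -0.19. The level of skr-1, a SKP1-related gene whose product is part of the worm synaptonemal complex as well as of ubiquitin ligases, fell from 106 ± 22.9 to 45.6 ± 12.96 CPM (log2 fold change -1.22, SE 0.24, edgeR adjusted p = 0.0146). The level of zhp-1, a RING finger protein of the synaptonemal complex, fell from 14.2 ± 4.51 to 6.46 ± 1.22 CPM (-1.14, SE 0.29, adjusted p = 0.0395). In hda-3, 3 of the 26 fell and 0 rose, beside 4.86% lower and 13.5% higher over all genes, with a median of -0.27. The median was -0.13 with RLE factors and -0.075 with TMM on autosomal genes, and 15 and 14 of the 26 then lay below 0 in place of 21. These were skr-1 (-1.26, SE 0.28, adjusted p = 0.00677), skr-2 (-1.44, SE 0.42, adjusted p = 0.0347) and csn-5, a subunit of the COP9 signalosome (-0.85, SE 0.27, adjusted p = 0.0447). The coding sequences of skr-1 and skr-2 are close copies, so the division of reads between them is uncertain. The call of skr-1 held in 14 of 16 alternatives in each mutant, but that of csn-5 in 4. The calls of zhp-1 in sin-3 and of skr-2 in hda-3 were each lost in 8 of 16, with adjusted p up to 0.150 and 0.237.

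Among 12 axis and cohesin genes 0 were called in sin-3, beside 4.92% lower and 2.68% higher over all genes, and the median was -0.01. At an unadjusted p under 0.05 there were also 0 in either direction, and DESeq2 and limma voom called 0. The smallest p was that of the cohesin gene rec-8 (log2 fold change -0.33, edgeR adjusted p = 0.227). In hda-3, where 4.86% of all genes were lower, htp-2 alone of the 12 fell, from 74.0 ± 4.41 to 35.1 ± 3.85 CPM (-1.07, SE 0.29, edgeR adjusted p = 0.0246). It encodes a HORMA-domain protein nearly identical to HTP-1, so its reads may be shared with htp-1, and the call was lost in 9 of 16 alternatives. Between the mutants htp-2 was higher in sin-3 by 1.42 (SE 0.30, adjusted p = 0.00529).

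Of 18 break and crossover genes 3 fell in sin-3 and 0 rose, beside 4.92% lower and 2.68% higher over all genes, with a median of -0.06. The BLM helicase gene him-6 fell from 40.95 ± 1.89 to 20.98 ± 2.21 CPM (log2 fold change -0.97, SE 0.18, edgeR adjusted p = 0.00951) and was the most stable of the 7 list calls, held in 15 of 16 alternatives. The MSH4 orthologue him-14 (-1.29, SE 0.27, adjusted p = 0.0181) and dsb-1 (-0.81, SE 0.19, adjusted p = 0.030), which promotes meiotic breaks, were the others. The call of him-14 was lost in 3 of 16 alternatives and that of dsb-1 in 6, with adjusted p up to 0.0878 and 0.127. In hda-3 0 of the 18 passed, beside 4.86% lower and 13.5% higher over all genes. Without adjustment, at a p under 0.05, 2 were lower and 0 higher, and DESeq2 and limma voom called 0. The smallest p in hda-3 was that of dsb-1 (-0.54, adjusted p = 0.107). Of 8 pairing and movement genes 0 passed in sin-3, beside 4.92% lower and 2.68% higher over all genes. There 1 was lower at an unadjusted p under 0.05 and DESeq2 and limma voom called 0. The smallest p was that of him-19 (-0.48, adjusted p = 0.167). In hda-3, beside the 4.86% lower over all genes, 1 of the 8 fell: sun-1, the nuclear envelope protein that moves pairing centres, went from 59.1 ± 5.60 to 34.8 ± 3.12 CPM (-0.77, SE 0.21, adjusted p = 0.0273), a call lost in 10 of 16 alternatives.

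**Figure D5:**
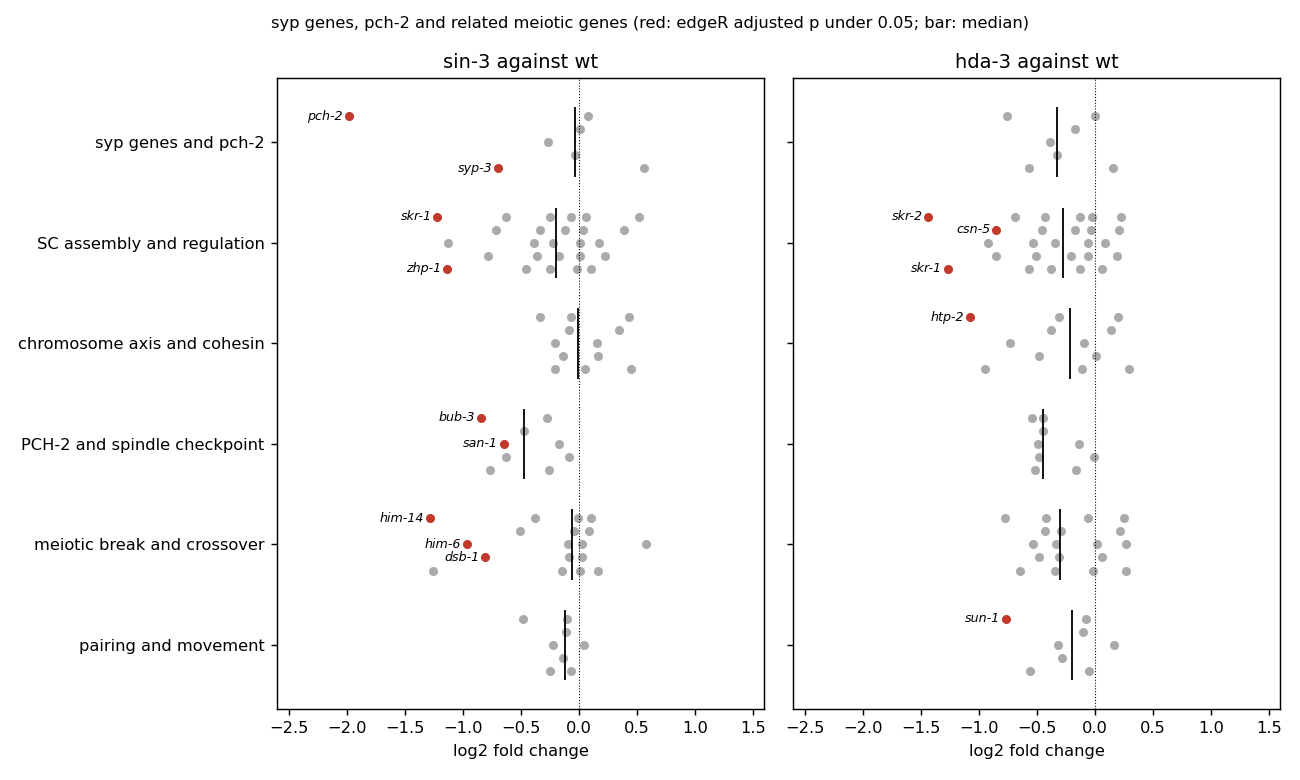
Log2 fold changes of syp-1 to syp-6, pch-2 and the 5 related lists in sin-3 against wt and hda-3 against wt; each point is a gene, red and named where the edgeR adjusted p was under 0.05, and black bars are medians. Among all these genes pch-2 in sin-3, at -1.99, lies farthest below 0, and all 9 checkpoint genes lie below 0 in both comparisons (in hda-3 against wt 6 of the 9 with TMM on autosomal genes).

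The 7 genes lie on 3 chromosomes, with 4 on chromosome I, 2 on V and pch-2 on II. Of these, 3 share exonic bases with another gene. The exons of pch-2 overlap those of emb-27, a subunit of the anaphase-promoting complex on the opposite strand, by 61 bases, and those of syp-3 overlap mrt-1 on the opposite strand by 61 bases. The exons of syp-1 overlap F13A7.14 on the same strand by 517 bases. The strand setting of the counting is not given in the sources used here, so reads in the opposite-strand stretches may be assigned to neither gene or to the wrong one. For syp-1 and F13A7.14, on the same strand, no strand setting separates the reads of the shared bases. These are 517 of the 3053 exon bases of syp-1, so its level per kilobase carries this uncertainty. The neighbour emb-27 measured 47.6 ± 2.48 CPM in wt, 35.3 ± 3.74 CPM in sin-3 and 41.1 ± 3.17 CPM in hda-3. Its log2 fold change in sin-3 was -0.43 (SE 0.17, edgeR adjusted p = 0.126), far smaller than that of pch-2 and not past the threshold. The next gene on that side, rrf-3, which encodes an RNA-dependent RNA polymerase, measured 22.2 ± 2.16 CPM (wt) and 20.2 ± 3.82 CPM (sin-3) (-0.14, adjusted p = 0.698). On the other side, tub-1 had 0 to 4 reads per library and tmem-138, at 307 bases, had 0 in all 8, and neither was tested.

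Over the 2 nearest coding genes on each side of all 7 genes, 28 were listed and 19 could be tested. In sin-3 against wt 1 of the 19 rose and 0 fell, where 2.68% of all tested genes were higher and 4.92% lower, and nothing is read from counts this small. The 1 was fog-1, a regulator of sperm fate located 12207 bases from syp-5, which went from 18.2 ± 1.83 to 32.7 ± 2.18 CPM (log2 fold change 0.84, SE 0.18, edgeR adjusted p = 0.0199). That call was lost on leaving out any 1 of the wt libraries or sin-3 replicate 4, with adjusted p up to 0.0799. In hda-3 against wt 1 rose and 1 fell, where 13.5% of all tested genes were higher and 4.86% lower. The gene that rose, H27M09.5, at 551 bases from syp-4 on the opposite strand, had 1, 0 and 2 reads in the wt libraries, whereas sin-3 had 0, 9 and 20 and hda-3 had 189 and 61. Its summed reads in hda-3 were 60.7 times those in wt after scaling by TMM-corrected library sizes, with a 95% counting interval of 20.5 to 296.4. This gene passed the filter on low counts through the hda-3 libraries, so its difference is a description. The neighbour that fell was C24G6.8, at 612 bases from syp-2 on the opposite strand, from 94.5 ± 8.80 to 37.4 ± 2.90 CPM (-1.34, SE 0.37, adjusted p = 0.0263), a call lost in 9 of 16 alternatives.

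The genes whose profile was most like that of pch-2 were sought among 4217 tested genes with a mean of at least 10 CPM, by Pearson's r of log2 CPM over the 8 libraries. With groups this far apart, r mostly describes the difference between sin-3 and the rest, and the libraries share depth and composition, so it is given as a description. The 5 highest were qns-1 (r = 0.991), which encodes NAD synthetase, bpl-1 (0.990), which encodes biotin protein ligase, the germline innexin gene inx-14 (0.989), gpcp-2 (0.987) and Y57G11C.36 (0.986). In sin-3 against wt their log2 fold changes were -1.43, -2.33, -2.14, -1.79 and -2.73, a direction that the choice by likeness to pch-2 fixed. In hda-3 against wt, inx-14 had -0.70 and the other 4 lay between -0.50 and -0.40. The hda-3 libraries entered r as well, so the choice shaped these values too, and no call is read from them. The 5 genes most like the summed syp level were msh-5 (r = 0.962), the MutS homologue that acts with HIM-14 in crossover formation, Y54G11A.3 (0.957), phf-30 (0.957), T04H1.5 (0.945) and F33A8.4 (0.932). A choice by likeness to a profile with little difference between groups favours genes that differ little, so their values too are a description. The log2 fold change of msh-5 was -0.04 in sin-3 and -0.29 in hda-3.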

How the data were processed

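RNA of dissected gonads was amplified with a SMART-Seq v4 kit and sequenced as single reads, per the labels' protocols. The deposited files, 1 for each library, hold raw counts of reads on genes. The submitters' processing notes name the tools DESeq2 1.36.0, HTSeq 0.7.2, STAR 2.7.3a and fastp 0.20.1. What each did, and the build, annotation and strandedness used, is not given in the sources used here. The authors also deposited 1 table for each mutant against wt. Per the file headers these hold a mean of size-factor scaled counts (a signal), a log2 fold change with its standard error, a test score, and unadjusted and adjusted p-values from DESeq2. These tables were used only where the text names the authors' deposited table. Gene identifiers were matched to WBcel235 (Ensembl release 115), which gave coordinates, and lengths as the union of exons.

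Lines that name no gene were kept out of library sizes: those without a feature made up 1.06 to 2.27%, ambiguous reads 0.673 to 1.55% and reads aligned to several places 3.03 to 5.57%. All 8 libraries entered 1 edgeR 4.0.16 quasi-likelihood model (R 4.3.3, limma 3.58.1, TMM, robust) with a term per genotype. Genes were kept by filterByExpr (min.count 10, min.total.count 15), p-values were adjusted by Benjamini-Hochberg over 10302 genes, and calls were made at an adjusted p under 0.05. CPM includes reads on ribosomal RNA. A standard error is the log2 fold change over the root of its F value. Permutation tests of single values were exact and two-sided. Intervals on read ratios cover counting error only, since amplified reads without molecular identifiers are not independent molecules. The model's steps were tested on simulated counts with known folds. These were drawn from the pooled wt profile without the differences in composition between the real libraries, so they do not test the scaling. Alternatives were other normalisations, no filter, DESeq2 1.42.0, limma voom, a replicate block, the compared groups alone, and each library left out.

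The genes, the lists and the rule for named genes were chosen with earlier results of these data known. By that rule the text names all 7 genes, the list genes called in either mutant or else the smallest p of a list, the nearest neighbours of pch-2 and called neighbours of the rest, and 5 genes by likeness. Others named, such as cmt-1 and mdf-2, were chosen for their role after their values were seen. Of the listed genes 150 matched a symbol and 3 did not and were not analysed here.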

Additional observations from a re-analysis of the deposited data

How the results depend on the processing

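Of the 16 alternatives for the test across genes, all kept pch-2 lower in sin-3 against wt and against hda-3. The number of the 7 genes called lower in sin-3 against wt dropped from 2 to 1, by loss of syp-3, with RLE factors, TMM on autosomal genes, no filter, limma voom, the replicate block and the 2 groups alone, and was 1 to 2 when single libraries were left out. The number higher in sin-3 against hda-3 was 0 to 1 over left-out libraries. Of the 73 related genes, those lower in sin-3 numbered 11 with the block, 3 with the 2 groups alone and 0 to 10 over left-out libraries, and those higher 0 to 1. Those lower in hda-3 numbered 1 with RLE factors, autosomal TMM or the block, 3 with DESeq2, 8 with the 2 groups alone and 0 to 7 over left-out libraries. Between the mutants, those higher in sin-3 numbered 1 with RLE factors, autosomal TMM, no filter or the 2 groups alone, those lower 1 with no filter, the block or the 2 groups alone, and both 0 to 4 over left-out libraries. Over all genes, left-out libraries gave 142 to 760 lower and 31 to 693 higher in sin-3 against wt (507 and 276 with all libraries), 53 to 805 lower in hda-3 against wt (501) and 88 to 524 higher in sin-3 against hda-3 (267); with DESeq2 583 and with no filter 688 were higher in sin-3 against wt, and with the 2 groups alone 313 were lower. Lower in hda-3 were 238 with RLE factors, 209 with autosomal TMM and 322 with the block. RLE factors moved the median log2 fold change of all genes in hda-3 against wt from -0.02 to 0.12, and autosomal TMM to 0.17.

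Some signs reversed. In sin-3 against wt, leaving out sin-3 replicate 5 turned syp-1 to 0.036 (range -0.47 to 0.036 over left-out libraries), syp-2 ranged from -0.20 to 0.40 over left-out libraries, and syp-4 became 0.0089 with RLE factors, 0.042 with autosomal TMM, 0.0087 with DESeq2, 0.059 with the 2 groups alone and -0.18 to 0.21 over left-out libraries. In hda-3 against wt, syp-4 became 0.028 with autosomal TMM, 0.0024 with the 2 groups alone and -0.32 to 0.067 over left-out libraries, and syp-5 -0.021 with limma voom and -0.10 to 0.18. In sin-3 against hda-3, syp-5 became -0.029 with RLE factors, -0.028 with DESeq2, -0.046 with autosomal TMM and -0.11 to 0.17 over left-out libraries, and syp-4 ranged from -0.14 to 0.17. The log2 difference of pch-2 per syp read between hda-3 and wt became 0.085 without syp-4 in the denominator, 0.037 without syp-6, 0.59 with reads outside ribosomal RNA as denominator and -0.18 to 0.077 over left-out libraries. The summed syp level in sin-3 against wt became 0.015 with RLE factors, 0.73 on reads outside ribosomal RNA without TMM and -0.15 to 0.14 over left-out libraries, and that in hda-3 against wt 0.61 on reads outside ribosomal RNA. The causes were not tested. Where a left-out library leaves 1 hda-3 sample, that sample is assumed to vary like the other groups. Replicate numbers were not used as pairs in the main model, and whether they pair the libraries cannot be told from so few libraries. Correlations of deviations from the group mean between same-numbered wt and sin-3 libraries were 0.004, 0.104 and 0.219. Those between wt and hda-3 were 0.092 and 0.372, and those between sin-3 and hda-3 were 0.021 and -0.194. The deviations of the 2 hda-3 libraries mirror each other, so correlations with them come as equal values of opposite sign. With the replicate number as a block, the edgeR adjusted p of syp-3 in sin-3 against wt was 0.0504. Counts of pch-2 as low as 48 reads limit its precision in sin-3.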
